A study of Mus musculus with 24 samples.

Results

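Of the 94 gene symbols in the expression table that begin with Kcn, the prefix shared by potassium channel pore subunits and their auxiliary subunits, 90 reached a mean of 1 TPM or more (a length-corrected share of a library's transcripts) over the 12 precipitated or the 12 input libraries, and these 90 of 23306 genes are described here. Kcnq1ot1, a noncoding RNA, does not count among the 94 symbols. The mean was reached in both fractions by 85 genes, in the precipitate alone by Kcnq1 and Kcnk15, and in the input alone by Kcna10, Kcnv2 and Kcnj1. Just inside the limit stood Kcnq1, with a mean of 1.04 TPM in the precipitate and 0.887 TPM in the input, Kcnk15, with 1.19 TPM in the precipitate and 0.781 TPM in the input, and Kcnv2, with 0.706 TPM in the precipitate and 1.27 TPM in the input. Just outside it stood Kcna7, with 0.983 TPM in the precipitate and 0.718 TPM in the input, Kcnk18, with 0.890 TPM in the precipitate and 0.988 TPM in the input, and Kcnk16, with 0.331 TPM in the precipitate and 0.729 TPM in the input. Kcnn4 was the other symbol outside.

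The libraries came from the dentate gyrus of female C57BL6 mice that carried the tamoxifen-inducible Cre transgene Nes-CreERT2 together with the ribosomal protein allele RPL22HA (RiboTag). The Nestin promoter drives the Cre, so recombination takes place in neural stem cells and other cells that use it, and those cells and their descendants make ribosomes with a haemagglutinin tag, which an antibody can precipitate with the RNA they carry. All mice were 9 to 11 weeks old when they received tamoxifen on 5 successive days. The 24 libraries fall into 12 groups of 2: precipitated ribosomes (IP, labelled as immature neurons) or whole dentate gyrus (input), from running mice with a free wheel or sedentary mice with a glued wheel, after 11, 18 or 27 days of treatment. The letters a and b name the libraries of each day 11 group, c and d those of day 18 groups, and e and f those of day 27 groups. Separate mice are not stated for them, so the p-values below measure only how far these samples differ, and that spread may be technical.

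Potassium channels let potassium ions leave the cell and thereby set the resting potential, end the action potential and limit repetitive firing. Kv channels open on depolarisation, inward rectifiers pass current mainly near rest, two-pore channels leak at all voltages, and a further class opens on calcium or sodium entry. Newborn granule neurons of the dentate gyrus start with a high input resistance and gain potassium conductance as they mature, while astrocytes carry the inward rectifier Kcnj10, through which they clear potassium from the extracellular space.

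Markers of newborn and immature neurons were higher in IP than in input for 12 of 12 genes, as were 12 of 12 markers of neural stem cells (limma, adjusted p under 0.05). Interneuron markers were lower in IP for 12 of 12 genes. Of 12 microglia markers 10 were lower in IP, and of 12 astrocyte markers 5 were higher and 4 lower. The 12 oligodendrocyte markers summed to 918 to 1412 TPM in IP and 536 to 834 TPM in input. The 12 mature granule neuron markers summed to 1410 to 2218 TPM in IP and 2411 to 3667 TPM in input. No marker of the 12 lists was at 0 throughout a fraction. Some libraries stood apart. Rpph1, the RNA of ribonuclease P, took 17.4% of TPM in the running day 11 IP library a, against 4.58% to 9.16% in the other IP libraries. The 4 input libraries of day 18 had a mean TPM over 1122 olfactory receptor genes, which serve the nose, of 8.0 to 16.4, against 1.06 to 5.54 in the other 8 input libraries and 1.71 to 4.99 in IP. Read depth is unknown, because TPM does not keep it.

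In TPM, a scale that corrects for transcript length, the 90 genes summed to 2806 ± 443 in IP and 2993 ± 225 in input (mean ± SD, n = 12 libraries each). The sum was lowest in the running IP library a of day 11, at 1892 TPM, and highest in the running IP library f of day 27, at 3507 TPM. By subfamily, the 39 Kv pore genes summed to 1143 ± 207 TPM in IP and 1193 ± 90.2 TPM in input. The 15 inward rectifiers summed to 628 ± 106 TPM in IP and 624 ± 62.5 TPM in input, and the 17 auxiliary subunits to 487 ± 74.4 TPM in IP and 687 ± 57.0 TPM in input. The 12 two-pore genes reached 302 ± 43.6 TPM in IP and 274 ± 24.1 TPM in input, and the 7 calcium- and sodium-activated genes 246 ± 31.4 TPM in IP and 215 ± 20.1 TPM in input.

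The gene with the highest mean level in IP was Kcnj6, a G protein-gated inward rectifier subunit, at 175.5 ± 40.5 TPM in IP and 172 ± 17.9 TPM in input. Kcnk1, a two-pore subunit, stood at 156 ± 35.4 TPM in IP and 167 ± 30.4 TPM in input. Kcnj3, which forms channels with Kcnj6, had 145 ± 29.0 TPM in IP and 163 ± 29.4 TPM in input. The means of these 3 genes in IP differed by less than the SD of Kcnj6. The most abundant in input was Kcnab2, a cytoplasmic beta subunit of Kv1 channels, with 112 ± 28.3 TPM in IP and 185 ± 28.3 TPM in input. Also among the 12 highest in IP were Kcnip2, Kcnj10, Kcnma1 (the BK channel pore), Kcnd3, Kcna2 and Kcna4, at means of 115 TPM for Kcnip2 down to 70.0 TPM for Kcna4. In input Kcna1, Kcnmb4, Kcnj4 and Kcnab1 also stood among the 12 highest, at means of 91.3 TPM for Kcna1 down to 83.8 TPM for Kcnab1.

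**Figure D1:**
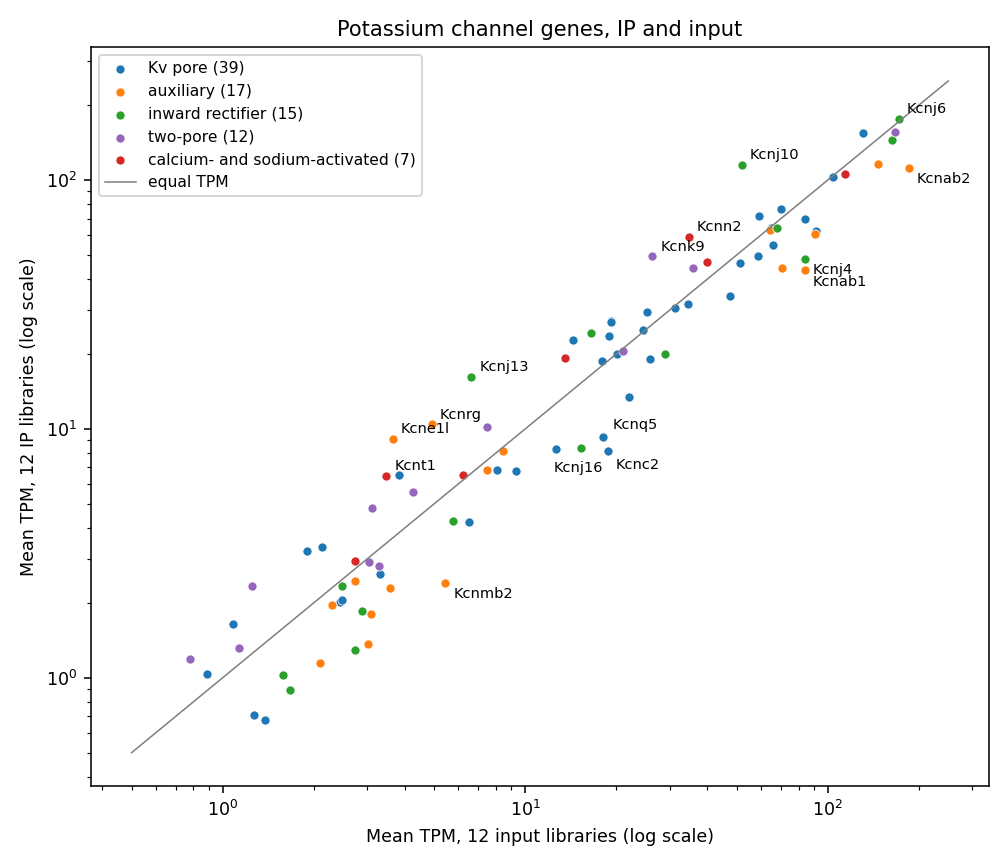
Mean TPM of the 90 potassium channel genes in the 12 IP libraries (vertical axis, log scale) against the 12 input libraries (horizontal axis, log scale), coloured by subfamily, with a line at equal TPM. Kcnj10 lies above the line with 115 TPM in IP and 52.0 TPM in input, and Kcnc2 below it with 8.12 TPM in IP and 18.7 TPM in input.

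The first comparison sets the precipitated RNA against the whole dentate gyrus. Of 87 potassium channel genes tested, 25 were higher and 27 were lower in IP by limma (adjusted p under 0.05), where 41.4% of all 19507 genes tested were higher and 28.5% lower, 69.9% in either direction. Differences are given as log2 of (TPM + 1), a scale that understates the change of low genes. The median difference of the 87 genes was -0.09, against 0.12 for all genes tested. Kcnq1, Kcnv2 and Kcnk15 stayed under the limit on low values in this fit. The level of a gene in whole tissue falls alike when fewer cells of a type are present and when each holds less of its RNA, and these cannot be told apart here.

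Of 11 two-pore genes tested, 6 were higher in IP and 0 lower, and of the 7 calcium- and sodium-activated genes 4 were higher and 0 lower. Of the 17 auxiliary subunits 2 were higher and 7 lower, of the 15 inward rectifiers 3 were higher and 6 lower, and of 37 Kv pore genes 10 were higher and 14 lower. No test compared the subfamilies with each other. Median-of-ratios scaling between libraries, which moved the median of all genes to -0.12, left 13 potassium channel genes higher and 50 lower. Over all genes, 40.3% of the called genes were higher under it, against 59.3% without it. These are shares of the called genes, and the shares of all tested genes under that scaling are not given. All 27 lower genes stayed lower under that scaling, and 12 of the 25 higher ones were lost. Among those lost were 5 of the 6 two-pore genes, all but Kcnk9, so the balance of the counts depends on the scaling.

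Kcnj10, the astrocytic inward rectifier, ranged from 76.7 to 156 TPM in IP with a median of 116 TPM, and from 39.2 to 71.1 TPM in input with a median of 52.0 TPM. Every IP library lay above every input library. Its difference was 1.11 ± 0.10 (SE; limma adjusted p = 6.09e-09). The 12 astrocyte markers summed to 3043 to 5767 TPM in IP and 2493 to 3646 TPM in input. The 12 oligodendrocyte markers summed to 918 to 1412 TPM in IP and 536 to 834 TPM in input. The part of either list in the result was not tested. Kcnj13, a weakly rectifying channel known from choroid plexus and other epithelia, ranged from 11.7 to 20.4 TPM with a median of 17.0 TPM in IP, and from 2.71 to 10.1 TPM with a median of 5.65 TPM in input. Again the fractions did not overlap, and the difference was 1.23 ± 0.10 (SE; limma adjusted p = 1.64e-09). Kcnj13 lies on the opposite strand inside Gigyf2, which stood at 113 TPM in IP and 88.1 TPM in input and was itself 0.40 higher in IP, and the strand setting of the counting is not given in the sources used here. Of 9 choroid plexus markers tested, 2 were higher and 5 lower in IP, and their part in the result was not tested. These were the only 2 potassium channel genes whose libraries were all higher in IP, where 10.1% of all genes tested were.

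Further genes higher in IP were Kcne1l, a small single-pass beta subunit (1.07 ± 0.11), Kcnrg, a soluble regulator of Kv assembly (0.98 ± 0.13), and Kcnk9, an acid-sensitive leak channel (0.83 ± 0.13). Kcnrg lies on the opposite strand inside Dleu2, whose values were not looked at. Kcnk9 ranged from 24.3 to 80.1 TPM in IP and from 13.8 to 37.1 TPM in input, so the fractions overlapped. The calcium-activated SK channel gene Kcnn2 was higher by 0.74 ± 0.09 and the sodium-activated Kcnt1 by 0.73 ± 0.11. Kcnd1, a pore subunit of A-type current, was higher by 0.67 ± 0.15, the Shaker-type Kcna3 by 0.63 ± 0.08 and the two-pore gene Kcnk7 by 0.61 ± 0.21. All limma adjusted p-values in this group were at most 0.0140. Kcnk7 did not pass under median-of-ratios scaling, and the other 9 of the 10 largest increases did.

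Of the lower genes, 5 did not overlap between fractions, where 2.08% of all genes tested were lower without overlap: Kcnc2, Kcnq5, Kcnv1, Kcnab1 and Kcnj16. Kcnc2, a high-threshold Kv pore known from fast-spiking interneurons, ranged from 4.60 to 11.3 TPM with a median of 8.34 TPM in IP, and from 13.6 to 25.1 TPM with a median of 19.1 TPM in input. The IP libraries lay wholly below the input libraries, with a difference of -1.12 ± 0.10 (SE; limma adjusted p = 1.35e-08). Interneuron markers moved with it, summing to 280 to 363 TPM in IP and 885 to 1341 TPM in input, and their part in the result was not tested. Kcnab1, a beta subunit that speeds inactivation of Kv1 channels, differed by -0.96 ± 0.07, Kcnq5, a pore of the muscarine-sensitive M-current, by -0.89 ± 0.07, and Kcnj16, which pairs with Kcnj10, by -0.81 ± 0.10. Kcnv1, an electrically silent Kv subunit, differed by -0.67 ± 0.08. Of the genes lower with overlap, Kcnmb2, a beta subunit of the BK channel, differed by -0.97 ± 0.13, the strong inward rectifier Kcnj4 by -0.85 ± 0.08, Kcnab2 by -0.74 ± 0.06, the Kv4 partner Kcnip4 by -0.65 ± 0.07, and the ether-a-go-go channel Kcnh5 by -0.58 ± 0.09. Among the 10 largest decreases, limma adjusted p was at most 6.00e-06.

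The difference between IP and input varied with the day in some genes. The F test over the 3 days called 36 of 87 potassium channel genes (limma, adjusted p under 0.05), near the 37.4% of all genes tested. At day 11, 10 genes were higher and 30 lower in IP, where 29.2% of all genes were higher and 12.1% lower, 41.2% in all. At day 18, 18 were higher and 33 lower, where 33% of all genes were higher and 31% lower, 64% in all. At day 27, 23 were higher and 15 lower, where 34.6% of all genes were higher and 14.3% lower, 48.9% in all. Among 37 Kv pore genes, the count of lower genes was 17 at day 11, 11 at day 18 and 6 at day 27, and their median difference was -0.36, -0.02 and 0.13 at those days. Auxiliary subunits had the most lower calls at day 18, with 12 of 17 lower and a median of -0.68. Several of those are near 1 TPM, such as Kcne2, a small beta subunit, at 1.15 TPM in IP and 2.10 TPM in input, and the olfactory receptor genes were raised in the same day 18 input libraries. The part of that background in the result was not tested. Without the 8 libraries of day 18, 26 potassium channel genes were higher and 24 lower in IP. The shares of all genes in that fit are not given. Kcnj15, an inward rectifier that was lower over all days (-0.49 ± 0.17), differed by 0.07 without the day 18 libraries.

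**Figure D2:**
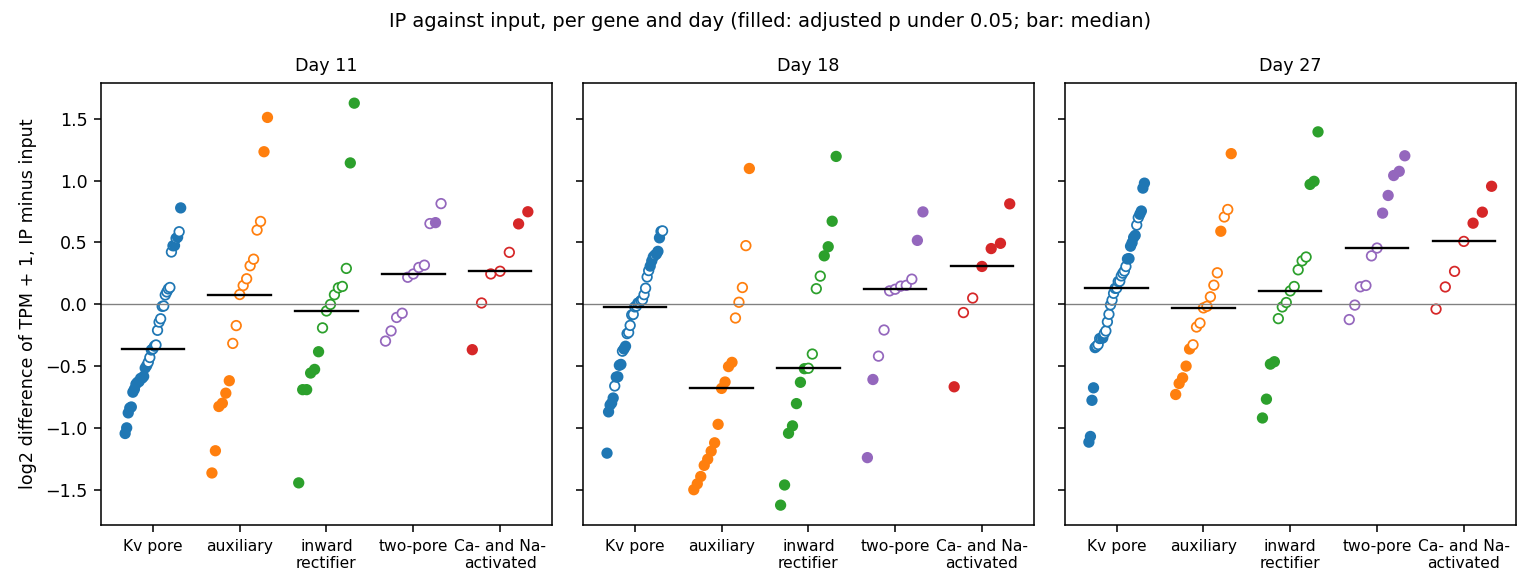
Difference of IP minus input in log2(TPM + 1) for each potassium channel gene (points) at days 11, 18 and 27, by subfamily. Filled points passed limma's test at an adjusted p under 0.05 and the bar is the median, which for Kv pore genes stands at -0.36 at day 11 and 0.13 at day 27.

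Within the IP, the day 27 libraries of both activities were set against those of day 11. More potassium channel genes were higher than lower at the later day. Of 87 tested, 33 were higher and 2 lower (limma, adjusted p under 0.05), where 11.4% of all 17282 genes tested were higher and 3.88% lower, 15.3% in either direction. The median difference was 0.43, against 0.15 for all genes, and 76 of the 87 differences were positive, where 67.8% of all genes were. The day 27 and day 11 libraries did not overlap for 37 genes that were higher and 2 that were lower, where 13.2% and 4.8% of all genes were. Kcna10, Kcnv2 and Kcnj1 stayed under the limit on low values in this fit.

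By subfamily, 20 of 37 Kv pore genes were higher and 1 lower, 6 of 14 inward rectifiers were higher and 0 lower, and 3 of 17 auxiliary subunits were higher and 1 lower. Of the calcium- and sodium-activated genes 2 of 7 were higher, and of the two-pore genes 2 of 12, with 0 lower in both. These counts rest in part on single libraries. Without the letter a libraries of day 11 in IP, 15 of the 33 higher genes still passed, where 2.57% of all genes were higher, and Kcnq5 lost its call. Leaving out the sedentary IP library a of day 11 gave 20 higher genes and 1 lower, and leaving out the sedentary IP library e of day 27 gave 21 and 1. The lower count was also 1 without the sedentary IP library f of day 27, and 3 without the running IP library a of day 11. Median-of-ratios scaling gave 27 higher and 3 lower. Over all genes it moved the higher share of the called genes to 46.1%, against 74.6% without it. The shares of all tested genes under that scaling are not given.

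Values of 4 libraries are given with the 2 running libraries first. Large increases that held in each leave-out of 1 library included Kcng2, Kcnj4, Kcnh1, Kcnh3 and Kcnab2. Kcng2, an electrically silent Kv subunit that modifies Kv2 channels, had 39.9, 42.0, 32.1 and 25.1 TPM in IP at day 27, against 11.2, 16.1, 14.8 and 18.2 TPM at day 11. Every day 27 library was higher than every day 11 library. Its difference was 1.15 ± 0.15 (SE; limma adjusted p = 2.83e-04). In input the difference was -0.01 ± 0.21, with 24.7 ± 5.11 TPM in day 27 libraries and 24.9 ± 5.29 TPM in day 11 libraries (SD, n = 4 each).

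Kcnj4, a strong inward rectifier, had 95.9, 66.3, 57.2 and 48.2 TPM in IP at day 27, against 26.4, 30.1, 39.1 and 31.2 TPM at day 11. All day 27 libraries were higher, and the difference was 1.02 ± 0.13 (SE; limma adjusted p = 2.87e-04). Kcnh1, an ether-a-go-go channel, had 40.5, 44.8, 34.8 and 34.3 TPM in IP at day 27, against 16.0, 21, 19.9 and 24 TPM at day 11, without overlap and with a difference of 0.91 ± 0.12. Kcnh3, of the elk branch of that family, averaged 40.5 ± 6.15 TPM at day 27 and 21.9 ± 3.25 TPM at day 11, without overlap and with a difference of 0.85 ± 0.12. Both genes overlap a neighbour on the opposite strand, Kcnh1 with Hhat and Kcnh3 with Mcrs1, neither of which passed in this comparison (0.31 each; limma adjusted p = 0.516 for Hhat and 0.134 for Mcrs1).

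Kcnc4, a Kv pore of the Shaw type, was higher by 0.74 ± 0.14. Kcnab2 had 160, 156, 137 and 121 TPM in IP at day 27, against 78.2, 73.8, 93.3 and 83.2 TPM at day 11, without overlap and with a difference of 0.80 ± 0.10. Its neighbour Nphp4, on the opposite strand and overlapping in part, was higher by 0.54 at day 27 (limma adjusted p = 0.0445), with a mean over all IP libraries of 13.4 TPM.

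More abundant genes were higher as well. Kcnj6 averaged 210.5 ± 23.0 TPM in IP at day 27 and 130 ± 28.8 TPM at day 11, a difference of 0.71 ± 0.13, and Kcnj9, the third neuronal subunit of the G protein-gated group, was higher by 0.76 ± 0.11. The M-current pore Kcnq3 was higher by 0.68 ± 0.12 and the Shaker-type axonal channel Kcna1 by 0.66 ± 0.12. Kcnip2, an A-type current partner, averaged 137 ± 8.94 TPM at day 27 and 88.8 ± 14.0 TPM at day 11, a difference of 0.63 ± 0.10. Kcnq3 was named after its value was seen. Limma adjusted p was at most 0.00240 for these 5 genes. Kcnk4, a mechanosensitive leak channel that overlaps Catsperz on its own strand, showed the largest difference at a low level, 1.17 ± 0.28, with 8.32, 4.52, 10.0 and 5.04 TPM at day 27 against 2.29, 3.55, 1.56 and 2.52 TPM at day 11. It lost its call without the running or the sedentary IP library a of day 11 or the sedentary IP library e of day 27, and Kcnj14, an inward rectifier (0.96 ± 0.30), lost it in 7 of 12 leave-outs, which were the 2 letter a libraries of day 11, the sedentary library d of day 18 and each of the 4 libraries of day 27.

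The 2 lower genes were Kcne1l and Kcnq5. Kcne1l had 4.58, 4.94, 5.71 and 6.07 TPM in IP at day 27, against 11.1, 9.54, 9.84 and 9.91 TPM at day 11. The days did not overlap, and the difference was -0.81 ± 0.16 (SE; limma adjusted p = 0.00396), passing in each leave-out. Kcnq5 averaged 7.0 ± 1.3 TPM in the day 27 libraries and 11.3 ± 0.211 TPM in the day 11 libraries (SD, n = 4 each), a difference of -0.63 ± 0.16 that lost its call without the sedentary IP library a of day 11 and without either sedentary IP library of day 27 (limma adjusted p up to 0.0704). Kcnq5 differed by -0.56 ± 0.13 in input as well (limma adjusted p = 0.0968). Among M-current pores, Kcnq3 was thus higher and Kcnq5 lower in IP at day 27.

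**Figure D3:**
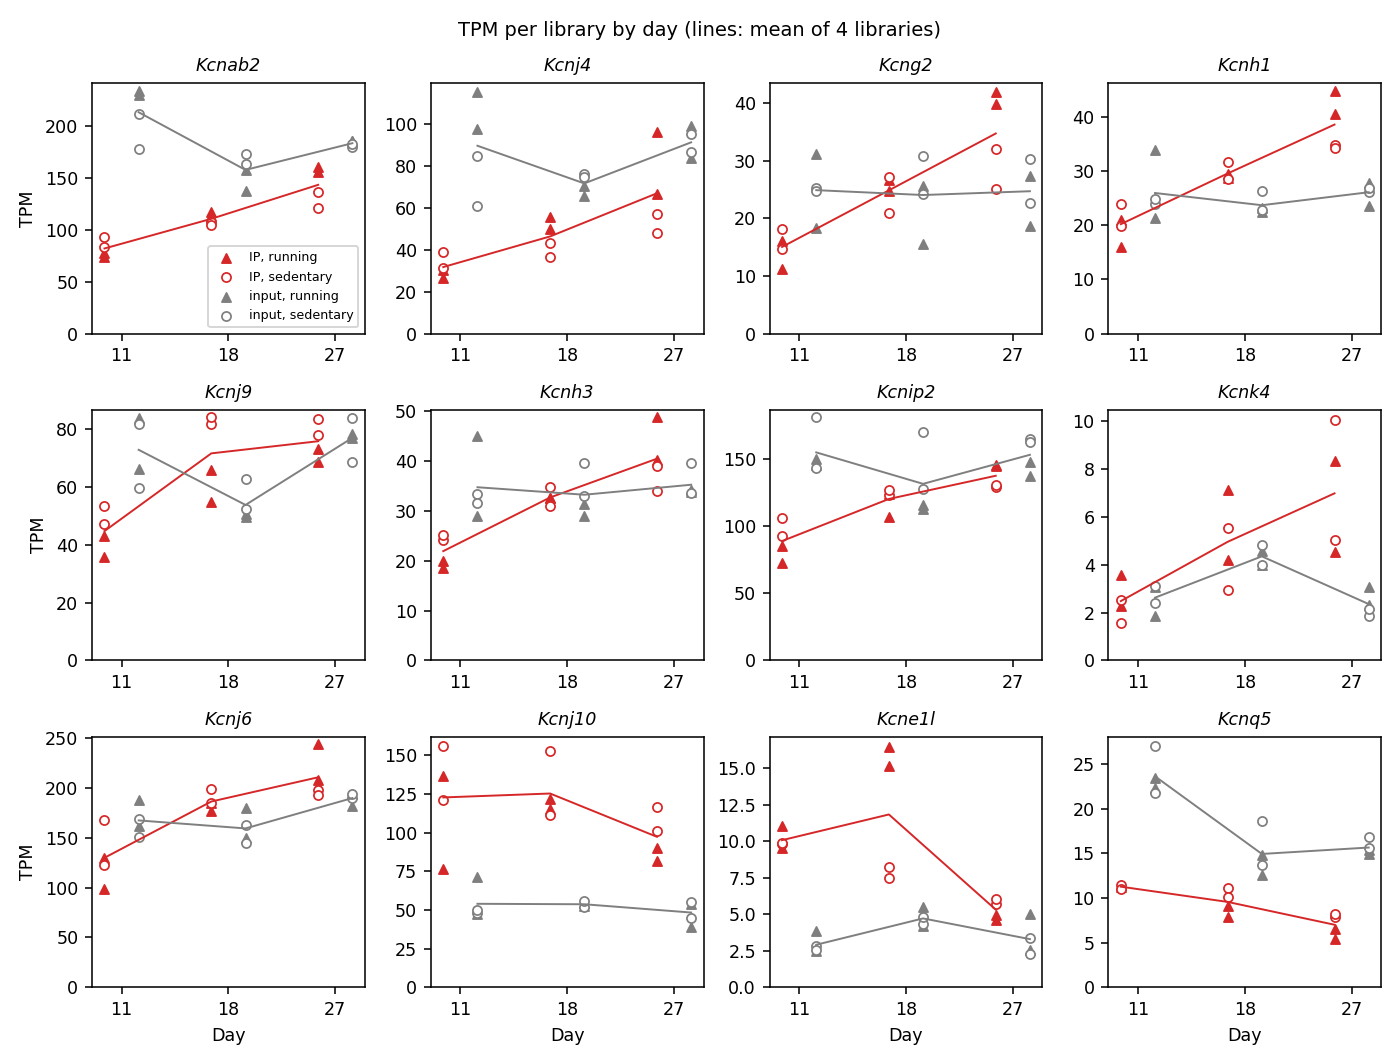
TPM of 12 potassium channel genes in each library at days 11, 18 and 27, IP in red and input in grey, with running as filled triangles, sedentary as open circles and lines through the mean of 4 libraries. In IP, Kcnab2 stands at 121 to 160 TPM at day 27 and 73.8 to 93.3 TPM at day 11, while its input libraries overlap between those days.

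Markers of other stages moved in the same libraries. Of 12 mature granule neuron markers, 9 were higher and 0 lower in IP at day 27, with sums of 1798 to 2218 TPM at day 27 and 1410 to 1496 TPM at day 11. Of 12 newborn and immature neuron markers, 0 were higher and 5 lower, with sums of 2144 to 3311 TPM at day 27 and 3019 to 4396 TPM at day 11. Neural stem cell markers were lower for 3 of 12 genes, microglia markers for 3 of 12 and astrocyte markers for 1 of 12. The part of these shifts in the potassium channel results was not tested.

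In input, 0 of 88 potassium channel genes passed between the same days in either direction by limma, as for 0% of all 20462 genes tested, and 8 had an unadjusted p under 0.05. The median difference was 0.14, against 0.12 for all genes. Without the sedentary input library a of day 11, 3 were higher and 1 lower. The test of the difference itself, the day 27 over day 11 change in IP minus that in input, called 7 genes higher and 0 lower of 87, where 1.46% of all genes were higher and 0.323% lower, 1.78% in all. They included Kcng2 (1.16 ± 0.27), Kcnab2 (1.00 ± 0.14), Kcnj4 (0.96 ± 0.19), Kcnh1 (0.88 ± 0.19), Kcnh3 (0.82 ± 0.18) and Kcnip2 (0.65 ± 0.16), with limma adjusted p between 0.00292 and 0.0433. Part of the Kcnab2 value lay in input, where the gene averaged 184 ± 2.91 TPM at day 27 and 214 ± 25.2 TPM at day 11 (mean ± SD). The Kcnab2 call held in all 24 leave-outs, and it was the only 1 of the 7 that held without the letter a IP libraries of day 11, where its difference was 1.06 (limma adjusted p = 0.0134). The count rested on single libraries, and ranged from 2 to 17. It was 2 without the sedentary IP library e or the sedentary input library f of day 27, and 3 without the sedentary IP library a of day 11 or the running input library f of day 27. It was 4 without the running IP library a of day 11, the running IP library e of day 27 or the sedentary input library b of day 11. It was 15 without the running IP library b and 17 without the running input library b, both of day 11.

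**Figure D4:**
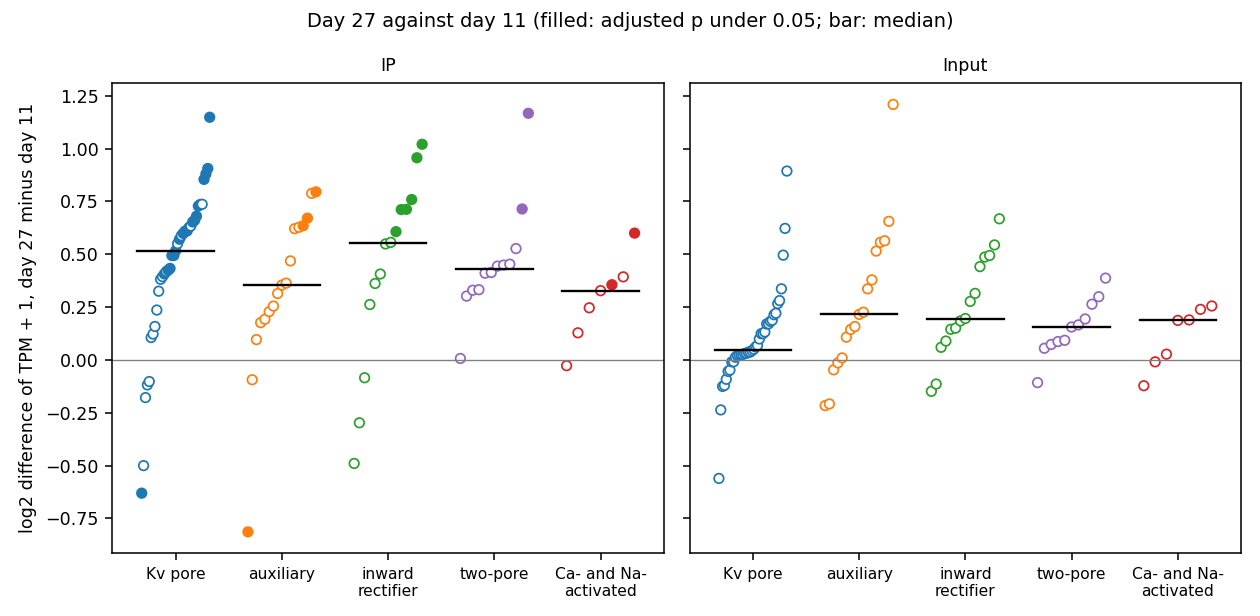
Difference of day 27 minus day 11 in log2(TPM + 1) for each potassium channel gene in IP (left) and input (right), by subfamily, with filled points past limma's adjusted p of 0.05 and bars at the median. In IP 33 points are filled above and 2 below 0, and in input 0 are filled.

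The proximal promoters of genes in this last group are shown as a description. The 7 genes were chosen by passing that test in the same direction, so their shared direction is not a separate result. Kcng2 and Kcnh3 are named only. Of the 90 potassium channel genes, 65 had an entry in the RefSeq promoter table (GRCm38.p6, from 250 bases before to 50 after a start). Windows are printed for 4 of the 7 genes of the group. Each line reads 5′ to 3′ on the gene's strand, with each GC box (GGGCGG, or CCGCCC where it lies on the other strand) in capitals. GC boxes are the letters bound by Sp family factors. The windows are chr4:152477500-152477799 on the minus strand for Kcnab2 (the first of 3 starts), chr15:79505192-79505491 on the minus strand for Kcnj4, chr1:192190527-192190826 on the plus strand for Kcnh1, and chr19:45816014-45816313 on the minus strand for Kcnip2.
Kcnab2: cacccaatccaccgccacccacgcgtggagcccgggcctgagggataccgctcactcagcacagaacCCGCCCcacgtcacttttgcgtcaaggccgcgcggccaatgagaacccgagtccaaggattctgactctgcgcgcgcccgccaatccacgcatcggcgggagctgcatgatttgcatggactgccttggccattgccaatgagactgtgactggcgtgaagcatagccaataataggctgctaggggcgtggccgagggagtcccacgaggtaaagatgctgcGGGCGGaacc
Kcnj4: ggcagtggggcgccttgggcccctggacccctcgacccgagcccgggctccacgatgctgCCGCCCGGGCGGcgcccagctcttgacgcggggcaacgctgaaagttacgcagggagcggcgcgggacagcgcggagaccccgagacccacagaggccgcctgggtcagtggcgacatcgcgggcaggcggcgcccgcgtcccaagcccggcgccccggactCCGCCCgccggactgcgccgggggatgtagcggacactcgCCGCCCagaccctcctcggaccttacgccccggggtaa
Kcnh1: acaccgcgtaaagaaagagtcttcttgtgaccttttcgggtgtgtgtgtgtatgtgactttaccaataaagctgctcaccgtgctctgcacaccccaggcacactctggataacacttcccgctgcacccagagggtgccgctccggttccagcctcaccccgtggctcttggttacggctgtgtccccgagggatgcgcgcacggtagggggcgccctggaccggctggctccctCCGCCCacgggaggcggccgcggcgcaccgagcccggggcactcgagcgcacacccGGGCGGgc
Kcnip2: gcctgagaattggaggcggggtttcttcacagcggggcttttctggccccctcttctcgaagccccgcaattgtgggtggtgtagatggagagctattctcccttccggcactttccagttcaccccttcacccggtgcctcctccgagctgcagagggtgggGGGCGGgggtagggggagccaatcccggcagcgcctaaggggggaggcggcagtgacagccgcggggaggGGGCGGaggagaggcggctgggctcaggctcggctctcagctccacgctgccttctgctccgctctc

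The Kcnj4 window held 4 GC boxes and a GC content of 76%, with 2 boxes adjacent on opposite strands, and the other 3 windows held 2 boxes each and 62.7% to 67% GC, where the median over all 32851 promoters of the table was 52.7%. At least 1 GC box was found in 35.7% of all promoters and in 48.9% of the 90 promoters of potassium channel genes. These 90 promoters belong to 65 genes, some with several starts, and are not 1 for each of the genes described. Other motifs were looked for as well. The E-box (CAGCTG) was found in 16.3% of all promoters and in 26.7% of these 90. The CCAAT box was found in 37.4% and 32.2%, in that order. A match is a description of the letters and not a binding site.

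Some of these genes were already higher at day 18. Against day 11, 14 of 87 genes were higher and 0 lower at day 18 (limma, adjusted p under 0.05), where 4.56% of all genes were higher and 1.1% lower, 5.66% in all. Kcng2 averaged 24.9 ± 2.83 TPM at day 18, against 15.1 ± 2.96 TPM at day 11 (SD, n = 4), a difference of 0.70 (limma adjusted p = 0.0165). Kcnj9 differed by 0.66, Kcnh3 by 0.57, the Shaker-type Kcna6 by 0.56, Kcnj6 and Kcnh1 by 0.54 each, Kcnj4 by 0.53 and Kcnc4 by 0.51. This count rests on single libraries: it was 0 without the letter a IP libraries of day 11, 2 without the sedentary one alone and 4 without the running one alone. It was also 2 without the running IP library d of day 18, 3 to 5 without each of the other day 18 IP libraries, and 25 without the running IP library b of day 11. Median-of-ratios scaling gave 8. At day 27 against day 18, 0 genes were higher and 1, Kcne1l, was lower (-0.96, limma adjusted p = 0.0339), where 0.0694% of all genes were higher and 0.0521% lower, 0.122% in all, and 22 had an unadjusted p under 0.05. The Kcne1l call was lost in 7 of 12 leave-outs, which were each of the 4 IP libraries of day 18, the running IP library f and both sedentary IP libraries of day 27.

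Genes that work with potassium channels were read from a list of 57. In IP at day 27 over day 11, 20 of 56 tested were higher and 1 lower, where 11.4% of all genes were higher and 3.88% lower. Chrm1, the muscarinic receptor that closes M-channels, differed by 0.93, Slc12a5, the neuronal potassium-chloride cotransporter, by 0.78, and Slc12a2, its chloride-importing counterpart and the 1 lower gene, by -0.37. Gabbr2, a GABA-B receptor subunit that gates Kcnj3 and Kcnj6 channels, differed by 0.70, Cntnap1, a paranodal protein that helps position Kv1 channels, by 0.70, and Abcc8, the sulfonylurea receptor of the ATP-sensitive channel, by 0.69. The pore partner of Abcc8, Kcnj11, was higher by 0.71 ± 0.13. Slc12a2 and Kcnj11 were named after their values were seen. Of the 5 genes of the HCN list, 0 passed in IP and 2 had an unadjusted p under 0.05. In input, 0 of 56 passed and 2 had an unadjusted p under 0.05. For IP against input, 17 of 55 partner genes were higher and 24 lower, where 41.4% of all genes were higher and 28.5% lower, with the membrane anchors Ank2 (2.61) and Ank3 (1.64) higher and Atp1b1, a sodium pump beta subunit (-1.36), lower.

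Running was set against sedentary over the 3 days. In IP, 0 of 87 potassium channel genes passed in either direction by limma, where 0% of all genes tested were higher and 0.00579% lower. Of the 87, 20 had an unadjusted p under 0.05. No share of all genes at that unadjusted threshold is given for this or any other such count. These counts are therefore not read as results. The median difference was -0.08, against -0.07 for all genes. In input, 0 of 88 passed, where 0% of all genes did, and 8 had an unadjusted p under 0.05. The difference of the running effect between IP and input called 0 of 87 genes and 0% of all genes, with 4 at an unadjusted p under 0.05, and the F test of the running effect over days called 0 of 87 in IP, with 6 at an unadjusted p under 0.05, where 0.00579% of all genes passed. The lowest p in input was that of Kcnip4, at -0.40 ± 0.12 (unadjusted p = 0.00606, limma adjusted p = 0.953).

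The lowest p-values in IP belonged to genes that were lower in running mice. Kcnj9 ranged from 35.6 to 72.9 TPM with a median of 60.1 TPM in running IP libraries, and from 47.0 to 84.1 TPM with a median of 79.8 TPM in sedentary ones. The ranges over all days overlapped, while within each of the 3 days both running libraries lay below both sedentary ones. The difference was -0.33 ± 0.09 (SE; limma adjusted p = 0.170). Kcnd3, Kcnh5 and Kcnk3 had the same within-day order in IP. The share of all genes with that order is not given here, so it is not read as a result. Kcnk9 ranged from 24.3 to 70.6 TPM with a median of 34.8 TPM in running IP libraries, and from 34.9 to 80.1 TPM with a median of 61.6 TPM in sedentary ones. Both running libraries lay below both sedentary ones at day 11 and at day 18, while the running library f was the highest at day 27. The difference was -0.60 ± 0.16 (limma adjusted p = 0.185). It was -0.76 without that library, which was chosen with its value known. That is 1 of 12 leave-outs and the only 1 given here for Kcnk9. The lowest Kcnk9 value in IP, 24.3 TPM, was in the running library a of day 11, where Rpph1 took 17.4% of TPM. Kcnn2 ranged from 40.5 to 63.0 TPM with a median of 47.9 TPM in running IP libraries, and from 60.6 to 77.1 TPM with a median of 64.7 TPM in sedentary ones, a difference of -0.38 ± 0.12 (limma adjusted p = 0.210). In input Kcnn2 differed by -0.27 (limma unadjusted p = 0.0399).

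Kcnk3, an acid-sensitive leak channel at a low level, was the only 1 of the 90 genes whose running and sedentary IP libraries did not overlap, with 1.18 to 2.78 TPM and a median of 1.83 TPM in running libraries, and 2.90 to 4.84 TPM and a median of 3.48 TPM in sedentary ones, where 0.0637% of all genes were higher and 0.457% lower without overlap. Its difference of -0.70 ± 0.21 did not pass (limma adjusted p = 0.210), nor did that of the A-type current pore Kcnd3 (-0.27 ± 0.08, limma adjusted p = 0.210). Of the genes with positive differences, Kcnk1 ranged from 119 to 241 TPM with a median of 171 TPM in running IP libraries, and from 119 to 158 TPM with a median of 139 TPM in sedentary ones, a difference of 0.28 ± 0.11 (limma adjusted p = 0.279). Kcnj2, a strong inward rectifier, differed by 0.25 ± 0.12 (limma adjusted p = 0.348). In the same contrast 11 of 12 newborn and immature neuron markers had a positive difference and 11 of 12 astrocyte markers a negative one, with 0 called in either list and 7 and 9 of them at an unadjusted p under 0.05. Of 12 neural stem cell markers, 11 were negative, 0 called. The part of these shifts in the potassium channel values was not tested.

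Within single days the running effect did not pass for any potassium channel gene, where 0% of all genes passed at days 11 and 18. At day 27, 0.00579% of all genes were higher and 0.0231% lower, 0.0289% in all. The lowest unadjusted p over days belonged to Kcne1l. At day 18 it had 16.5 and 15.2 TPM in running IP libraries and 8.26 and 7.51 TPM in sedentary ones. Both running libraries were higher, yet the difference of 0.92 ± 0.22 did not pass (limma adjusted p = 0.369). At day 27 its running libraries had 4.58 and 4.94 TPM and its sedentary ones 5.71 and 6.07 TPM. The change of this effect over days had an unadjusted p of 0.00560 and an adjusted p of 0.831 by limma's F test.

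**Figure D5:**
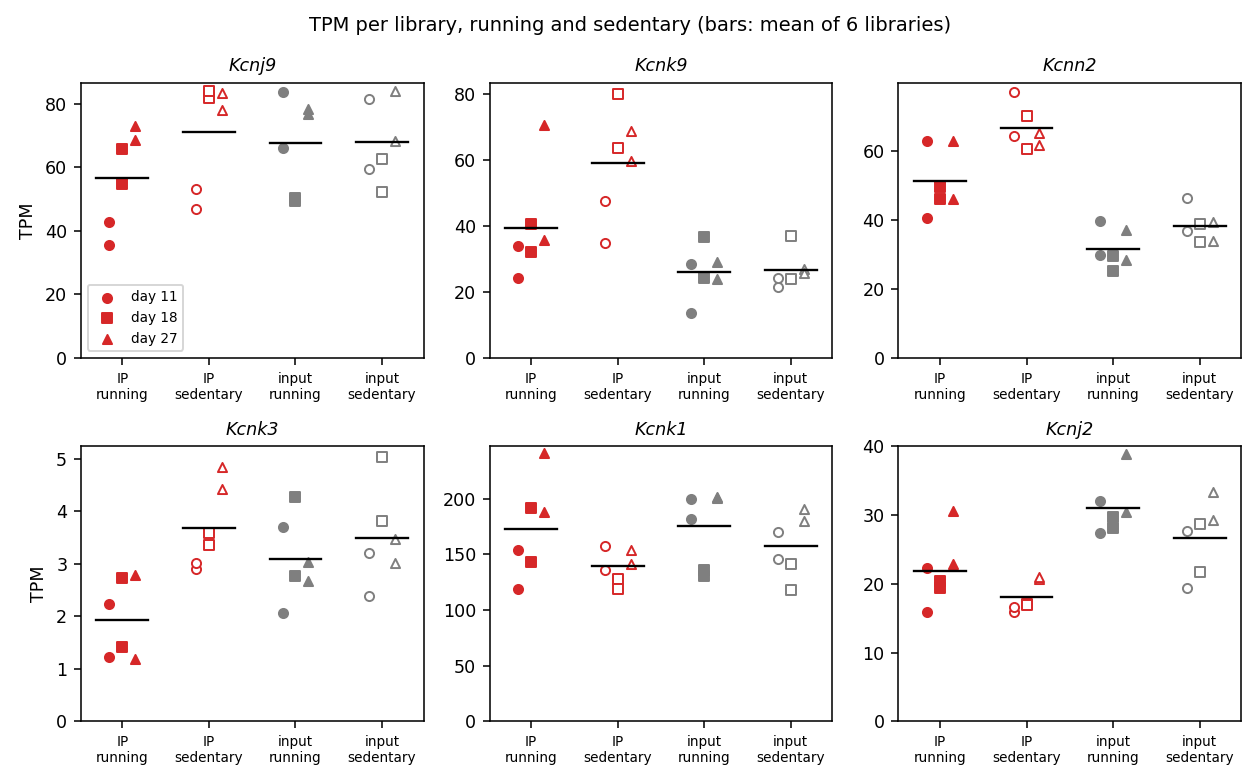
TPM of 6 potassium channel genes in each library, running left of sedentary for IP (red) and input (grey), with the marker showing the day and the bar the mean of 6 libraries. Kcnk3 lies at 1.18 to 2.78 TPM in running IP libraries and 2.90 to 4.84 TPM in sedentary ones, and the other genes overlap.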

How the data were processed

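RNA of 24 libraries was measured by RNA-seq with a stranded SMARTer total RNA kit, per the labels' protocols. The authors deposited 1 table of TPM, each column summing to 1000000, and per the submitters' processing notes used RSEM and mm10. No source used here gives the aligner, annotation, versions or strand setting. TPM keeps no depth, so no counting interval was computed and precision rests on the spread between libraries. Coordinates come from GENCODE M21 on GRCm38, the mm10 assembly, in which all 90 members were found by symbol.

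Members and gene lists were chosen with earlier results of these data known. Limma 3.58.1 in R 4.3.3 (lmFit, eBayes with trend and robust) was run on log2(TPM + 1) over genes with a mean of at least 1 TPM: 19507 in all 24 libraries, 17282 in IP and 20462 in input. Two-sided p-values (F tests apart) were adjusted by Benjamini-Hochberg across every gene tested in that contrast (threshold 0.05). Named were, per comparison, up to 10 members with the largest differences past the threshold in each direction, otherwise the 5 of lowest p (the clearest of these are printed), up to 6 partner genes, and the 12 of highest mean TPM in each fraction. Dixon's gap was read in groups of 4 libraries. The fit was tested on simulated data. Alternatives were a pseudocount of 0.1, no filter, median-of-ratios scaling, a replicate block, and leaving out libraries. Some genes that the naming rule would give are not reported here, while counts include them.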

Additional observations from a re-analysis of the deposited data

Results flagged for a closer look

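In 7 genes, 6 of which are given, the day 27 over day 11 difference in IP exceeded that in input by limma's test of the difference, in log2(TPM + 1): Kcng2 by 1.16, Kcnab2 by 1.00, Kcnj4 by 0.96, Kcnh1 by 0.88, Kcnh3 by 0.82 and Kcnip2 by 0.65. Among 108 groups of 4 libraries of the same fraction and day, for 18 genes named in the day comparisons, 4 held a library far from the other 3, where chance flags about 1 in 20. All 4 were input libraries. Kcnj10 stood at 71.1 TPM in the running input library a of day 11, and Kcnh3 at 39.6 TPM in the sedentary input library e of day 27. Kcna10 stood at 1.33 TPM in the sedentary input library a of day 11, and Kcnh8, an elk-type Kv pore, at 1.31 TPM in the running input library e of day 27.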

How the results depend on the processing

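The deviations of libraries that share a letter correlated by 0.05 to 0.27 between running and sedentary and by -0.28 to -0.01 between IP and input. Not every pair was above 0.1, so the letters were not taken as pairing. With the letter as a block, 2 genes were lower in running IP libraries (Kcnj9 and Kcnn2, limma adjusted p = 0.0413 each). With the IP and input title as a block the F test over days called 23 genes. The share of all genes called under either block is not given here, so the blocked counts are not read as results. Without the letter a IP libraries of day 11, 15 genes were higher at day 27 over day 11 in IP, 0 at day 18 over day 11, and 1 in IP minus input (the last of these chosen after seeing the data). Median-of-ratios scaling gave 13 higher and 50 lower genes in IP over input, and 8 higher at day 18 over day 11. Under it Kcna2 (-0.00727) and Kcnt2 (-0.0378) changed sign in IP over input, and without the day 18 libraries Kcnj15 did (0.0736). With 1 library left out, day 27 over day 11 in IP gave 20 to 40 higher and 1 to 3 lower genes, day 18 over day 11 gave 2 to 25 higher, day 27 over day 18 gave 0 to 1 lower, day 27 over day 11 in input gave 0 to 3 higher and 0 to 1 lower, IP minus input gave 2 to 17 higher, and running in IP gave 0 to 1 lower. Of the genes called, 47 of 52 in IP over input and 21 of 35 in day 27 over day 11 in IP passed in each leave-out, with 0 changes of sign. The cause of these changes was not tested. No share of all genes tested is given for the counts under median-of-ratios scaling or with 1 library left out, here or above. Those counts show only how far the calls move, and are not read as results about these genes. No count of potassium channel genes moved by over 1.5 times under the pseudocount of 0.1 or without the filter.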
